A study of Mus musculus with 10 samples.

Results

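The tetraspanins are a family of small membrane proteins. Rows of the count tables were taken as members where the gene symbol was Tspan followed by a number, or was Cd9, Cd37, Cd53, Cd63, Cd81, Cd82 or Cd151, which gave 27 genes of 32531 in each table. The values are raw read counts per gene from TRAP (translating ribosome affinity purification) on cerebral cortex from adult mice of line ES691, which carry S100a10-EGFP/Rpl10a. In these mice the regulatory sequences of S100a10 drive an EGFP-tagged ribosomal protein, and polysomes that carry the tag are immunopurified (IP) with anti-EGFP antibodies. The series is a short-access study of drug taken intravenously. The saline, cocaine and yoked control groups each have 3 IP libraries, all from transgenic mice, and total RNA of the saline group gave 1 input library.

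What the yoked controls were given, and the number of animals behind each library, are not in the labels. Nothing there shows that replicates are separate animals. The p-values therefore reflect only how these samples varied, which may be technical. Each IP group was sequenced on a lane of its own and the input on another, and effects of lane and group cannot be told apart. Gene counts ranged from 38653752 to 50898401 in the IP libraries, and the input held 69974908. The transcript of S100a10 itself was at 235 ± 56.1 CPM in saline IP (CPM, counts scaled to library size; SD, n = 3) and 35.2 CPM in the input. The labels name neurons as the purified cells. The summed level of 8 excitatory neuron markers was 3719 to 4989 CPM in saline IP and 4578 CPM in the input. Of the 8, 0 were called, against 11.3% of all genes tested. For 8 interneuron markers the sum was lower, at 557 to 877 CPM in saline IP and 1285 CPM in the input. Of these 8 interneuron markers, 1 was called lower, as were 4.26% of all genes tested. The summed level of 14 meningeal fibroblast markers was 2356 to 3263 CPM in saline IP against 129 CPM in the input. These marker lists were chosen with earlier results of these data known.

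Tetraspanins cross the membrane several times and carry a large extracellular loop held together by disulfide bonds. They act as organisers that gather integrins, immunoglobulin-like proteins and membrane proteases into shared patches. Some of them (CD9, CD63 and CD81) are widely used as markers of extracellular vesicles. The TspanC8 subgroup escorts the protease ADAM10 to the cell surface. In brain, Tspan2 is known from oligodendrocytes and myelin, Tspan7 from neurons, where mutations of the human gene cause intellectual disability, and Cd37 and Cd53 from leukocytes.

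RefSeq promoter entries (GRCm38.p6) were matched for 26 of the 27 members, all but Tspan18. The 250 bases before the most upstream listed RefSeq start are shown, 5′ to 3′ on the gene's strand. They are given for the members with the largest enrichment among those called, Tspan8 and Tspan11. Tspan9, the family member closest to Tspan11, is shown as well, and so are the nearby members Cd151 and Tspan4, which were both enriched. Distances were taken between family members only. Genes outside the family that lie between them, or start within a window, were not looked for. Capitals mark matches, on either strand, to the GC box GGGCGG, the CCAAT box CCAAT, the TATA box TATAAA and the forkhead motif GTAAACA, none of which contains another.
Tspan8 (chr10:115817034-115817283, plus strand): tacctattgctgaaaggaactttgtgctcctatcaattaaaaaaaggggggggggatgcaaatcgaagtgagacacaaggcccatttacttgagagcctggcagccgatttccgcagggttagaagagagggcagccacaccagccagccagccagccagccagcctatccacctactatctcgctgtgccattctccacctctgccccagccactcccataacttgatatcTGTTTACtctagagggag
Tspan11 (chr6:127887372-127887621, plus strand): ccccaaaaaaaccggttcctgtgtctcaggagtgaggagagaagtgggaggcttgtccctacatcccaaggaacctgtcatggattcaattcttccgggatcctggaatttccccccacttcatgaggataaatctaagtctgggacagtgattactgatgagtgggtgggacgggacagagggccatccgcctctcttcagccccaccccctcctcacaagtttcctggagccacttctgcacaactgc
Tspan9 (chr6:128143579-128143828, minus strand): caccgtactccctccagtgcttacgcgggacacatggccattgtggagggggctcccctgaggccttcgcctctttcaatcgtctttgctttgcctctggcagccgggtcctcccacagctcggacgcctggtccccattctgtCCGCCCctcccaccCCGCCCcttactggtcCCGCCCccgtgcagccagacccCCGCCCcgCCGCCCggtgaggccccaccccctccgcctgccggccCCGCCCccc
Cd151 (chr7:141467112-141467361, plus strand): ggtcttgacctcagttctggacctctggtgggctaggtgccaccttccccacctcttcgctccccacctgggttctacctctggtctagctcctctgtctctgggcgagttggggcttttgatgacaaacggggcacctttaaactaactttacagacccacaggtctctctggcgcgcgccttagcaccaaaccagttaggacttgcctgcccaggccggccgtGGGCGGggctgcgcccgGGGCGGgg
Tspan4 (chr7:141474986-141475235, plus strand): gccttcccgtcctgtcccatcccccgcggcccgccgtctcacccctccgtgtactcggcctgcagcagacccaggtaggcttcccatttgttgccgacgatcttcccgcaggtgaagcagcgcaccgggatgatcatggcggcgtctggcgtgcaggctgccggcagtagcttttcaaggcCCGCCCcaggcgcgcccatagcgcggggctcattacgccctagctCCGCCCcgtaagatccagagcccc
The Tspan8 window lies inside the gene as GENCODE draws it, with a start further upstream. The windows differed in CpG content, given as the observed over expected ratio. It was 0.235 for Tspan8 and 0.221 for Tspan11, against 0.665 for Tspan9, 0.495 for Cd151 and 0.857 for Tspan4. Members that were not called had lower ratios still: Tspan32 (0.0518), Tspan10 (0.0673), Cd53 (0.157) and Tspan1 (0.168). Of the other called members, Cd63 was at 0.406, Cd9 at 0.761 and Tspan2 at 0.602. The middle values over the 26 member windows were 0.595 and 0.602, and the median was 0.373 over all 32851 windows of the table. Each member gave 1 window, at its most upstream start, while the 32851 hold every listed start of a gene. Member and background shares thus come from unlike sets. GC boxes were found in 14 of the 26 members and in 32.7% of all windows, with 6 in Tspan9, 2 in Cd151, 2 in Tspan4 and 0 in Tspan8 and Tspan11. CCAAT was found in 7 of 26 (33.8% of all windows), TATAAA in 1, Tspan12 (12.4%), and GTAAACA in 1, Tspan8 (3.17%). A match to these letters is a description of the sequence and does not show a bound site.

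Levels per transcript length placed a few broadly expressed members at the top. In saline IP, Cd81, a widely expressed member found on many cell types, was at 206 ± 32.0 CPM per kb of its longest coding transcript (SD, n = 3), the highest of the family. Tspan13 followed at 153 ± 22.3 CPM per kb and Tspan3, which binds the tight junction protein claudin-11, at 116 ± 22.6 CPM per kb. The 3 libraries of Cd81 lay above all those of Tspan13, while the libraries of Tspan13 and Tspan3 overlapped. Tspan7 (58.7 ± 13.8 CPM per kb), Tspan31 (42.1 ± 5.78 CPM per kb) and the late endosomal Cd63 (41.8 ± 1.55 CPM per kb) came next, and neighbours among these overlapped, except that Tspan7 lay below Tspan3 in every library. Tspan5, a TspanC8 member, was at 32.6 ± 5.79 CPM per kb and overlapped Cd151 at 25.9 ± 1.97 CPM per kb.

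The same 4 genes, Cd81, Tspan13, Tspan3 and Tspan7, led the order in the input, at 130.02, 89.4, 86.7 and 63.0 CPM per kb. Further down, the orders differed. Tspan8 ranked 11 of 27 in saline IP and 25 in the input, and Tspan2 ranked 15 in saline IP and 6 in the input. At the low end, Tspan10, known from pigment cells, had a count of 0 in all 9 IP libraries and 1 in the input. A count of 0 allows up to 3 counts in a library. Tspan1, an epithelial member, had 0, 11 and 4 counts in the saline IP libraries and 18 in the input. All members together took 0.135% to 0.220% of an IP library's gene counts, and 0.141% of the input's.

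**Figure D1:**
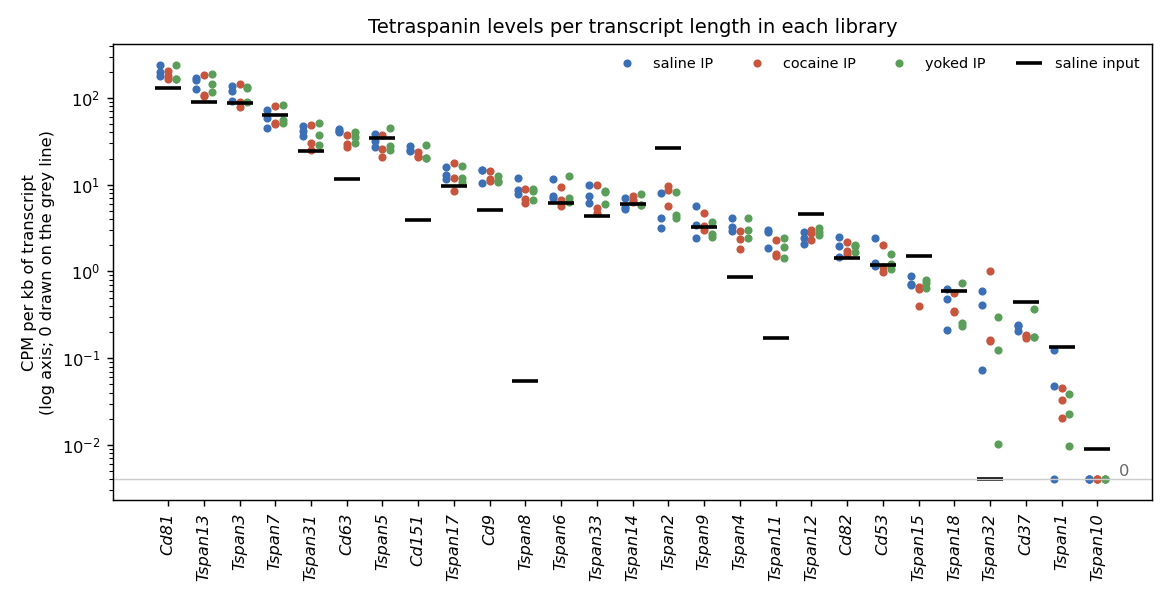
Levels of the 27 tetraspanins in CPM per kb of transcript (log axis), with points for the 9 IP libraries coloured by group and a black bar for the single input, and with 0 drawn on the grey line. Cd81, Tspan13 and Tspan3 stand highest in IP and in the input, and Tspan8 and Tspan11 show the widest gaps between IP points and the input bar among members with input counts.

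Saline IP was compared with the input to ask which tetraspanin transcripts the purification selects. Of 26 members tested, 6 were higher in IP (Tspan8, Tspan11, Cd151, Tspan4, Cd63 and Cd9), from 2.61-fold to 168-fold, and 1, Tspan2, was lower (edgeR quasi-likelihood test, adjusted p under 0.05 over 18437 genes). Over all genes tested, 11.3% were called, with 7.07% higher and 4.26% lower, so the members' share of 26.9% called stood above the background. The median log2 fold change (log2FC, ± SE for single genes) of the 26 members was 0.48, and it was 0.02 over all genes tested. Without saline replicate 1, 2 or 3 the same 7 members were called, with Tspan12 in addition without saline replicate 3. With 1 input library, the fit took its variance from the IP libraries. Every IP library is set against that same input, so counts of libraries above or below it are not independent. Fewer cells of a type and less RNA per cell cannot be told apart in these bulk samples.

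Tspan8 (chromosome 10, 115816832 to 115849893, plus strand, GRCm38), a tetraspanin best known from epithelia and tumour cell migration, showed the largest enrichment among members with a count in the input. Tspan8 was measured at 16.4, 11.9 and 10.7 CPM in the saline IP libraries, 9.55, 8.43 and 12.2 CPM in cocaine, 11.6, 9.23 and 12.2 CPM in yoked and 0.0747 CPM in the input. All 9 IP libraries were far above the input, and the IP groups overlapped. The log2FC was 7.39 ± 0.55 (adjusted p = 3.69e-06 by edgeR). The input held 5 counts, with an exact Poisson interval of 1.62 to 11.7 (95%, counting error only), so the size of the ratio is loosely set.

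Tspan11 (chromosome 6, 127887589 to 127953977, plus strand) came next. The input gave 0.881 CPM of Tspan11, the saline IP libraries 15.7, 9.56 and 14.8 CPM, the cocaine IP libraries 8.17, 7.82 and 11.95 CPM and the yoked IP libraries 7.49, 9.86 and 12.8 CPM. Again no IP library came near the input, which held 59 counts. The log2FC was 3.91 ± 0.48, or 15.1-fold (edgeR adjusted p = 0.000136). Tspan9, a member described in platelets, runs toward Tspan11 on the opposite strand, with 7418 bases between their 3′ ends, and did not pass: 13.0, 9.37 and 21.5 CPM in saline IP against 12.5 CPM, with a log2FC of 0.23 ± 0.41 (edgeR adjusted p = 0.793). The difference between the neighbours' log2FC values was not itself tested.

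Cd151 (chromosome 7, 141467392 to 141471473, plus strand), whose protein binds laminin-binding integrins, was also enriched. Saline IP libraries 1, 2 and 3 held Cd151 at 45.3, 52.4 and 47.3 CPM, cocaine IP libraries at 38.7, 40.1 and 44.7 CPM, yoked IP libraries at 38.1, 37.5 and 54.0 CPM and the input at 7.23 CPM. The log2FC was 2.74 ± 0.29, or 6.69-fold (edgeR adjusted p = 4.59e-05), with 484 counts in the input. Tspan4 (chromosome 7, 141475240 to 141493427, plus strand) is found on migrasomes, the vesicles left behind by moving cells. It is the next family member after Cd151, on the same strand and 3766 bases further on. Tspan4 was measured at 4.25, 6.01 and 4.798 CPM in the saline IP libraries, 2.65, 4.34 and 3.49 CPM in cocaine, 3.55, 4.42 and 6.03 CPM in yoked and 1.25 CPM in the input. Its log2FC was 1.998 ± 0.44, or 3.99-fold (edgeR adjusted p = 0.0106), on 84 input counts. Every IP library lay above the input for both genes. Among the called members, Tspan4 overlaps Chid1 on the opposite strand, Tspan8, Tspan11 and Cd9 overlap antisense genes, and Cd151 overlaps the noncoding Gm10575. Without a stated strand setting, reads of these overlaps cannot be assigned with certainty.

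Both called members used as vesicle markers were also higher. Cd63 (chromosome 10, 128900989 to 128912822, plus strand) sits in late endosomes and lysosomes. The input gave 12.9 CPM of Cd63, the saline IP libraries 46.5, 44.6 and 48.1 CPM, the cocaine IP libraries 29.9, 32.5 and 41.8 CPM and the yoked IP libraries 44.4, 33.3 and 39.5 CPM. Its log2FC was 1.85 ± 0.27, or 3.60-fold (edgeR adjusted p = 0.000549). Cd9 (chromosome 6, 125460266 to 125494791, minus strand) is needed for fusion of sperm and egg and is also present in myelin. Saline IP libraries 1, 2 and 3 held Cd9 at 18.02, 18.004 and 12.7 CPM, cocaine IP libraries at 17.5, 14.3 and 13.5 CPM, yoked IP libraries at 13.3, 15.6 and 13.7 CPM and the input at 6.23 CPM. Its log2FC was 1.38 ± 0.29, or 2.61-fold (edgeR adjusted p = 0.00783). The third vesicle marker, Cd81 (chromosome 7, 143052739 to 143067934, plus strand), was above the input in all 9 IP libraries, from 253 to 370.3 CPM against 199 CPM, but did not pass (0.66 ± 0.26, edgeR adjusted p = 0.122).

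Tspan2 (chromosome 3, 102734529 to 102801513, plus strand), which belongs to the oligodendrocyte lineage, was the one member called lower. Tspan2 was measured at 14.4, 35.9 and 18.5 CPM in the saline IP libraries, 42.8, 39.1 and 25.5 CPM in cocaine, 19.8, 36.9 and 18.6 CPM in yoked and 119 CPM in the input. The log2FC was -2.38 ± 0.43, or 5.20-fold lower in saline IP (edgeR adjusted p = 0.00278). The summed level of 10 oligodendrocyte markers was 291, 657 and 312 CPM in saline IP, 845, 649 and 325 CPM in cocaine IP, 385, 565 and 242 CPM in yoked IP and 1551 CPM in the input, in replicate order as for Tspan2. In each IP group, the library with the highest Tspan2 also had the highest oligodendrocyte sum. The astrocyte and interneuron sums were highest in those same libraries, so the match is not particular to oligodendrocytes. The part of any of these cells in the Tspan2 difference was not tested. Tshb and the antisense genes Tspan2os and Gm42681 overlap Tspan2 on the opposite strand.

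**Figure D2:**
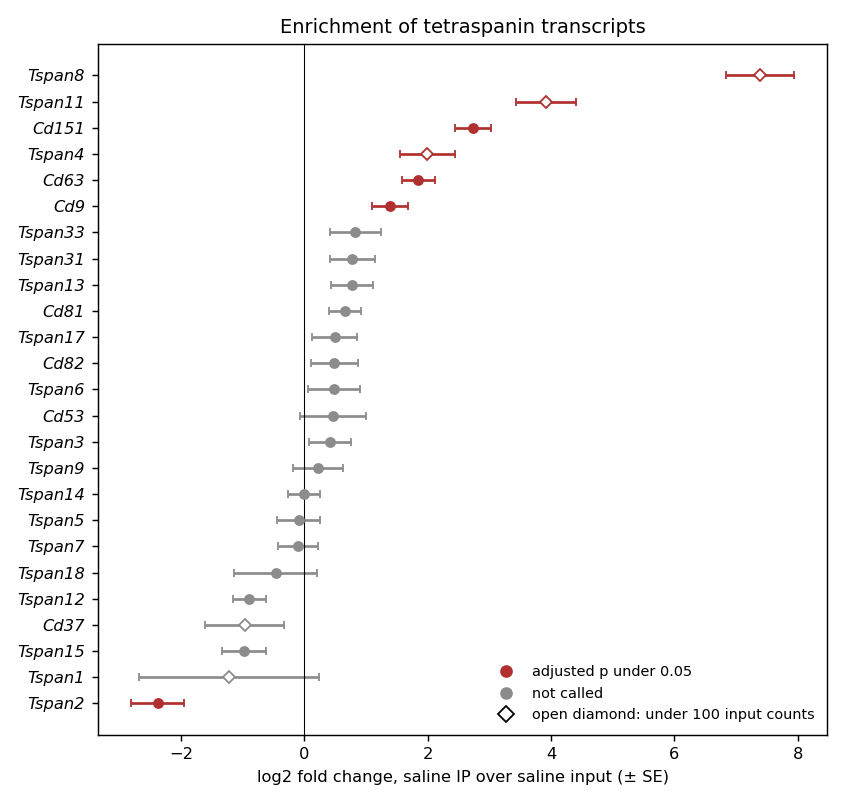
Log2 fold change of saline IP over saline input with its SE for 25 tested tetraspanins (Tspan32, at 0 in the input, is not drawn), red where called and with open diamonds for members with under 100 input counts. Tspan8 lies farthest to the right at 7.39 and Tspan2 farthest to the left at -2.38.

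Tspan12, Tspan15 and Tspan18 did not pass. Tspan12 (chromosome 6, 21771395 to 21852515, minus strand), a coreceptor of the Norrin receptor Fzd4, was at 6.01, 5.22 and 7.17 CPM in saline IP and 11.4 CPM in the input. All 9 IP libraries were lower than the input, and the log2FC of -0.89 ± 0.27 just missed the threshold (edgeR adjusted p = 0.0520). Without saline replicate 3 it passed (-1.03, adjusted p = 0.0372), as it did by DESeq2 (-0.90, adjusted p = 0.0215). Tspan15 (2.64, 3.19 and 2.57 CPM against 5.53 CPM) was also lower than the input in 9 of 9 IP libraries and did not pass (-0.98 ± 0.36, edgeR adjusted p = 0.0966). Tspan18, described in endothelium, was at -0.46 ± 0.67 (edgeR adjusted p = 0.739).

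Among the leukocyte members, Cd37 was at 0.605, 0.520 and 0.618 CPM in saline IP against 1.14 CPM, with a log2FC of -0.96 ± 0.64 (edgeR adjusted p = 0.392), on 76 input counts. Cd53 was at 2.04, 2.19 and 4.28 CPM against 2.05 CPM (0.47 ± 0.53, edgeR adjusted p = 0.651), and its libraries lay on both sides of the input. Tspan32, a haematopoietic member, had 0 counts in the input and 56, 6 and 32 in the saline IP libraries. Against the limit of 3 counts that a count of 0 allows in the input library, its saline IP mean was at least 15.1-fold higher, and at least 9.995-fold without saline replicate 1. It did not pass (edgeR adjusted p = 0.0923), but passed by DESeq2 (adjusted p = 0.0124) and without the filter on low counts (adjusted p = 0.0421). An antisense gene overlaps Tspan32. The median of the family was 0.48 also with Tspan32 set to that lower bound. The summed level of 10 microglial markers was 35.5 to 44.1 CPM in saline IP and 55.9 CPM in the input. Of the 10, 1 was called higher and 2 lower, where 7.07% and 4.26% of all genes tested were.

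Tspan7 and Tspan3, both abundant, did not pass. Tspan7 (chromosome X, 10485158 to 10596605, plus strand), linked to trafficking of AMPA receptors through PICK1, was at 412, 318 and 514 CPM in saline IP and 445 CPM in the input (-0.10 ± 0.33, edgeR adjusted p = 0.894). Tspan3 was at 206, 158 and 234 CPM against 149 CPM (0.42 ± 0.34, adjusted p = 0.495). Their IP values lay around or slightly above the input value. Tspan13 (0.77 ± 0.34, edgeR adjusted p = 0.173) and Tspan31 (0.78 ± 0.37, adjusted p = 0.209), which overlaps Cdk4 on the opposite strand, were above the input in all 9 IP libraries and did not pass. The remaining members, Tspan6 (0.48 ± 0.43), Cd82 (0.49 ± 0.38), known as a suppressor of metastasis, and Tspan1 (-1.23 ± 1.46), did not pass either (edgeR adjusted p = 0.542, 0.480 and 0.669). Of the 26 tested members, 12 were above the input in 9 of 9 IP libraries, against 21.5% of all genes, and 5 were below it in 9 of 9, against 22.5%. All 9 share the same single input, so an error in its value would shift all 9 together. The 12 include Tspan32, at 0 in the input, and the 5 include Tspan1, on 18 input counts. Tspan32 is not shown to be above the input in every library. Its lowest value, 0.0191 CPM in yoked replicate 2, was under the 0.0448 CPM that 3 input counts would give. Over saline IP alone, 20 of 26 tested members did not overlap the input, against 64.5% of all genes.

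No member of the TspanC8 subgroup passed. Tspan5 was at -0.089 ± 0.35, Tspan14 at -0.0068 ± 0.26, Tspan17 at 0.49 ± 0.37, Tspan33 at 0.83 ± 0.41 and Tspan15 at -0.98 ± 0.36, and 0 of these 5 tested members passed by edgeR at an adjusted p under 0.05 (1 of 5, Tspan15, at an unadjusted p under 0.05, as for 25.1% of all genes, and 0 by DESeq2). Adam10, the protease they escort, was at 30.0 ± 7.53 CPM in saline IP and 54.5 CPM in the input (-0.86 ± 0.29, edgeR adjusted p = 0.0728).

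Genes of tetraspanin partners were read from fixed lists. Over all genes tested, 7.07% were called higher and 4.26% lower, and 1 called gene in a short list says little. Of 5 genes of the Norrin receptor complex, which includes Tspan12, 1 was higher, the coreceptor Lrp5 (2.62 ± 0.67), and 1 lower, the ligand Ndp (-1.82 ± 0.43). Of 5 laminin-binding integrins, 1 was higher, the shared beta chain Itgb1 (1.12 ± 0.28), while the CD151 partners Itga3 (0.36 ± 0.42) and Itga6 (-0.96 ± 0.48) did not pass. Of 14 other membrane partners tested, 3 were higher: Ifitm1, an interferon-induced membrane protein, at 4.93 ± 0.37, and the adhesion molecules Icam1 at 2.31 ± 0.51 and Vcam1 at 1.48 ± 0.28. Adjusted p for these 6 called genes ranged from 3.92e-06 to 0.0217 (edgeR).

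The immunoglobulin-like partners Igsf8 (0.0017 ± 0.37), Igsf3 (0.0022 ± 0.40) and Ptgfrn (1.12 ± 0.60), which bind CD9 and CD81 or other tetraspanins, were not called. Of 8 genes of vesicle sorting, 0 were called by edgeR, 0 had an unadjusted p under 0.05 (25.1% of all genes did), and the list median was 0.11. Among them Sdcbp, which encodes the CD63 partner syntenin, was at 0.18 ± 0.26 and Pdcd6ip, which encodes ALIX, at -0.037 ± 0.22. Transcripts for Cd63 and Cd9 were thus called higher while none of the sorting genes was, and the difference between those results was not tested.

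Marker lists of other cell types differed in direction between saline IP and the input. All 14 meningeal fibroblast markers were called higher, where 7.07% of all genes tested were called higher and 4.26% lower. The lists were chosen with earlier results of these data known, so this count is a description and not independent evidence. Of 10 mural markers 5 were higher, with sums of 257 to 302 CPM in saline IP and 38.5 CPM in the input. However, 4 of the 10 had a log2FC below 0, Rgs5 (-1.21), Higd1b (-0.69), Abcc9 (-0.46) and Kcnj8 (-0.015). Of 10 endothelial markers 3 were higher and 1, Emcn, was below 0 (-1.86). The endothelial sums were 36.7 to 58.3 CPM in saline IP and 8.69 CPM in the input. Of 8 choroid plexus and ependymal markers 4 were higher (64.1 to 83.8 CPM in saline IP and 16.8 CPM in the input). In that list 3 were below 0, Ttr (-1.80), Folr1 (-2.81) and Foxj1 (-0.075). Of 10 oligodendrocyte markers 4 were lower, and of 10 astrocyte markers 2 were higher and 3 lower (1088 to 1304 CPM in saline IP and 2422 CPM in the input). No marker of these lists was at 0 in the input, and Folr1 of the choroid plexus list was at 0 in some IP library. The part of these cell types in the enrichment of Tspan8, Tspan11, Cd151, Tspan4, Cd63 and Cd9 was not tested.

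**Figure D3:**
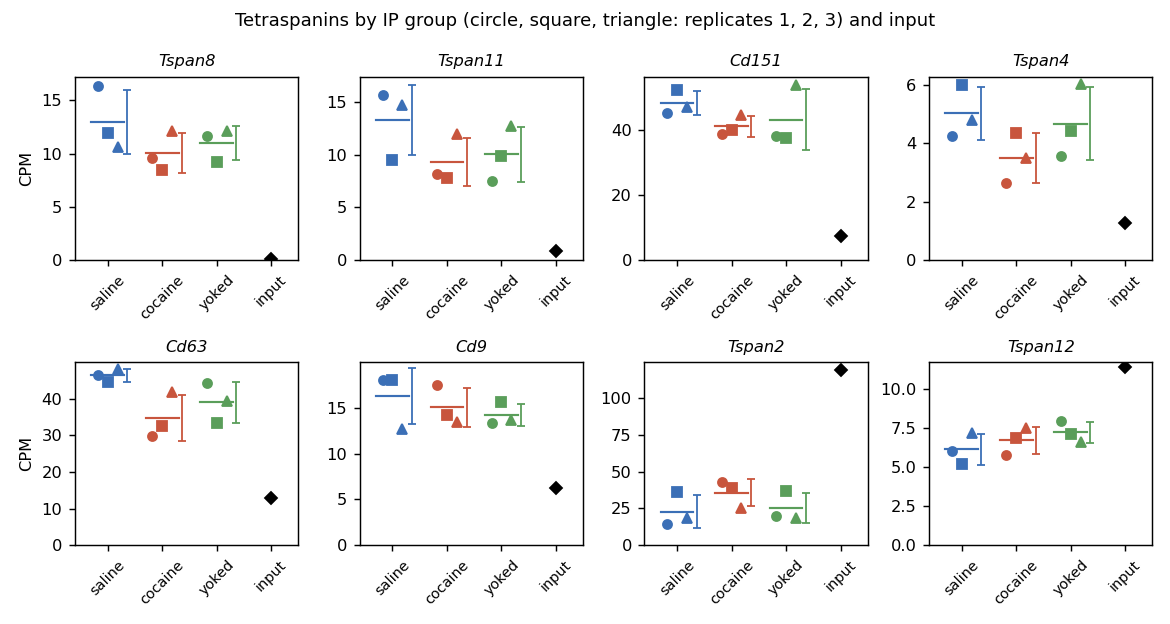
CPM of the 7 called tetraspanins and Tspan12 by IP group (circle, square and triangle for replicates 1, 2 and 3, horizontal line for the mean, bar for the SD, n = 3) with the single input as a black diamond, each panel on its own linear axis from 0. For each gene shown, the points of the saline, cocaine and yoked groups lie all above or all below the input.

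Cocaine and saline self-administration were compared to ask whether tetraspanin transcripts bound to tagged ribosomes differ with the drug. Of 25 members tested, 0 were called by edgeR (0% of all 16642 genes tested were), 0 were called by DESeq2, and the lowest adjusted p of a member was 0.990. Only Cd63 had an unadjusted p under 0.05, which is 4% of the members against 3.18% of all genes. That number was 7 without cocaine replicate 3 (5.37% of all genes), 3 without saline replicate 2 (4.10%), and 0 without cocaine replicate 1 (1.37%) or saline replicate 1 (1.73%). Cd63 was at 29.9, 32.5 and 41.8 CPM in cocaine and 46.5, 44.6 and 48.1 CPM in saline, and these groups did not overlap. Its log2FC was -0.43 ± 0.17 (edgeR adjusted p = 0.990). Tspan11 (-0.53 ± 0.26) and Tspan4 (-0.53 ± 0.28) followed by p, both with adjusted p = 0.990 and with groups that overlapped. Groups did not overlap for 4 of 25 members (Cd63, Cd151, Cd37 and Tspan15, all lower in cocaine), against 8.97% of all genes tested, 4.32% in that direction.

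The members' log2FC values were below 0 for 20 of 25 in this comparison, with a median of -0.22, while 53.1% of all genes tested were below 0, with a median of -0.02. The median of the members ranged from -0.40 without cocaine replicate 3 to -0.087 without saline replicate 3 and -0.088 and -0.092 without cocaine replicates 2 and 1. With each library's trend on transcript length removed it was -0.13, and 19 of 25 were below 0. The meningeal fibroblast list had 13 of 14 members below 0 and a median of -0.23 in the same comparison. Its summed level was 2017 to 3342 CPM in cocaine and 2356 to 3263 CPM in saline, with 0 markers called. Choroid plexus and ependymal markers had 7 of 7 tested below 0 (median -0.32), and oligodendrocyte and astrocyte markers each had 9 of 10 above 0. Their part in the members' values was not tested.

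No member passed between yoked and saline either. Of 25 members, 0 were called by edgeR or DESeq2 (0% of all genes by edgeR), and 0 had an unadjusted p under 0.05, against 2.39% of all genes. That number was 2 without yoked replicate 3 (2.94% of all genes) or saline replicate 2 (2.42%). The lowest p belonged to Tspan11 (-0.41 ± 0.26), Cd63 (-0.26 ± 0.17) and Tspan9 (-0.37 ± 0.29), each with edgeR adjusted p = 0.99983. For Cd63, 44.4, 33.3 and 39.5 CPM in yoked lay below 46.5, 44.6 and 48.1 CPM in saline without overlap, the one such member of 25 (6.08% of all genes, 3.05% in that direction). This comparison shares its saline libraries with the one above, so lower values of Cd63 and Tspan11 in both are not independent. The median of the 25 members was -0.089 (19 below 0, where 51.9% of all genes were), and it was 0.0062 without saline replicate 3, -0.0093 without yoked replicate 2, -0.056 without yoked replicate 1 and -0.26 without yoked replicate 3. With the length trend removed it was -0.0073, with 13 of 25 below 0.

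Cocaine against yoked gave 0 called members of 25 by edgeR or DESeq2 (0% of all genes by edgeR), with 0 at an unadjusted p under 0.05, against 0.955% of all genes. That number was 3 without cocaine replicate 3 (3.53% of all genes), 1 without yoked replicate 2 (2.44%) and 1 without yoked replicate 3 (0.923%). The members with the lowest p were Tspan32 (1.63 ± 1.02), Tspan4 (-0.42 ± 0.28) and Tspan2 (0.50 ± 0.34), all with edgeR adjusted p = 0.99996. Tspan32 rests on few reads, with 13, 14 and 94 counts in cocaine and 9, 1 and 25 in yoked. Groups overlapped for 25 of 25 members, and 4.73% of all genes did not overlap. Oligodendrocyte markers, beside Tspan2, had 9 of 10 above 0 with a median of 0.65 and 0 called. The joint test of any difference among the 3 IP groups called 0 members and 0% of all genes (edgeR), with 0 members and 1.61% of all genes at an unadjusted p under 0.05.

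**Figure D4:**
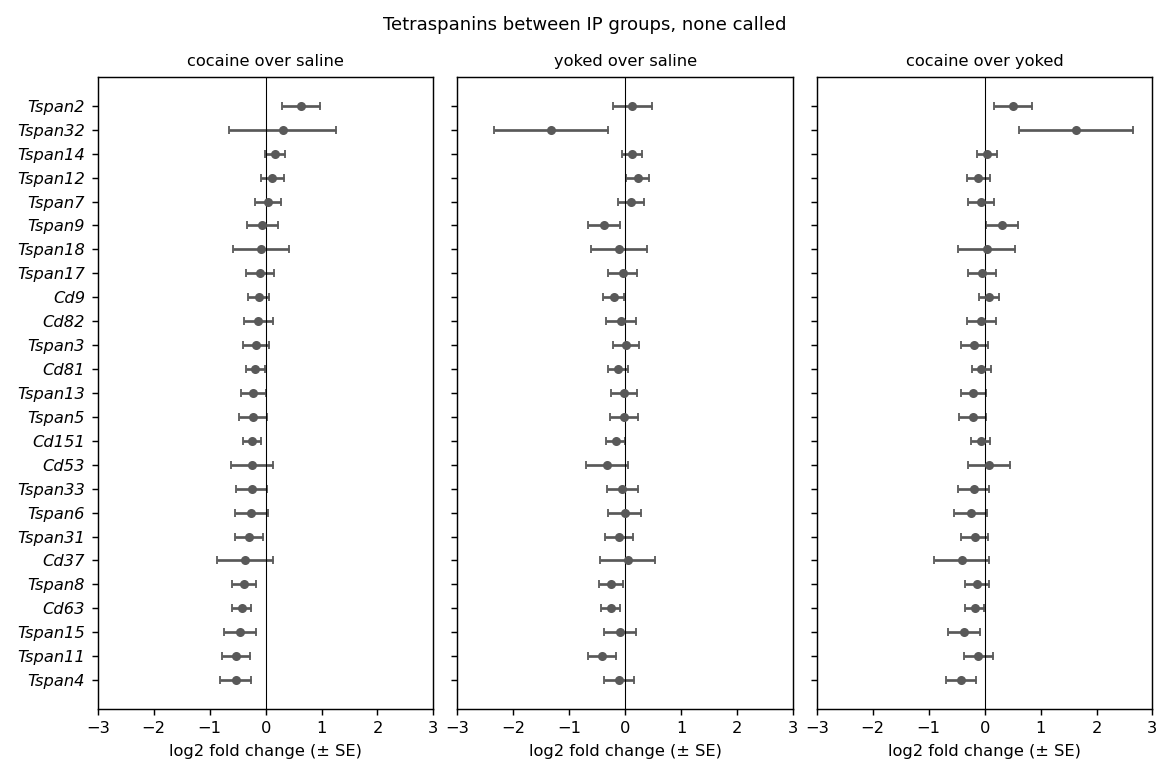
Log2 fold change with its SE of 25 tetraspanins for cocaine over saline, yoked over saline and cocaine over yoked IP, ordered by the first. No member was called, and the widest bars belong to Tspan32.

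Within the IP groups, several members were highest in the libraries numbered replicate 3. For 10 of 25 members (Cd37, Cd53, Cd81, Tspan3, Tspan5, Tspan7, Tspan9, Tspan17, Tspan31 and Tspan33), replicate 3 was above both other libraries in the saline, cocaine and yoked groups alike, and this held for 16.1% of all genes tested. Replicate 3 was below both others in every group for 0 members and 13.4% of all genes. Tspan7 was at 412, 318 and 514 CPM in saline, 366, 355 and 565 CPM in cocaine and 360.4, 397 and 581 CPM in yoked, so its highest library carried the number 3 each time. Tspan5 ran from 139 to 297 CPM over the IP libraries, with 257, 248 and 297 CPM in replicate 3. Tspan2 took the opposite course in cocaine and yoked, where replicate 3 was lowest. The 10 members are described here after their values were seen, with no test.

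Marker sums moved with these libraries too. The meningeal fibroblast sum was highest in replicate 3 of each group, at 3263, 3342 and 3404 CPM, against 2017 to 2891 CPM in the other 6 IP libraries. The excitatory neuron sum was also highest there, and the interneuron sum was lowest. Without the 3 replicate 3 libraries, 10 members were called against the input, the 7 named above with Tspan12, Tspan13 and Tspan32. Between the IP groups, 0 members were called without them by edgeR, and 5 of 25 had an unadjusted p under 0.05 for cocaine against saline, 2 for yoked against saline and 2 for cocaine against yoked, where 9.23%, 6% and 2.74% of all genes did. What sets the libraries numbered 3 apart was not tested.

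**Figure D5:**
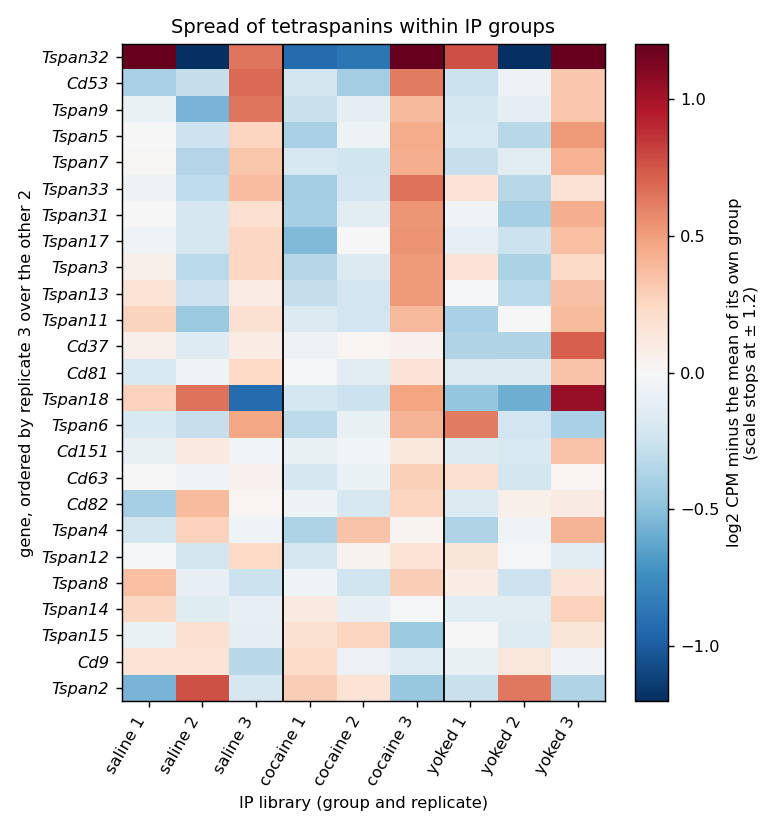
Heat map of log2 CPM minus the mean of the library's own IP group for 25 tetraspanins (rows, ordered by replicate 3 over the other 2 libraries) and the 9 IP libraries (columns), with the colour scale ending at ± 1.2. Rows from Cd53 to Tspan13 are mostly red in the third column of each group, and Tspan2, the last row, is blue there.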

How the data were processed

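RNA of 9 IP libraries (3 each of saline, cocaine and yoked) and 1 saline input was measured by sequencing. For each library the authors deposited a table of raw counts by gene symbol. STAR 2.0.0e, HTSeq and mm10 are named in the submitters' processing notes. Strand setting and annotation: not given in the sources used here. The 6 entries that name no gene, 47.4% to 54.5% of a table's total (reads aligned to several places above all), were left out. Genes were filtered with filterByExpr at a minimum count of 10, scaled by TMM and tested by the quasi-likelihood method of edgeR 4.0.16 in R 4.3.3, with p-values adjusted by Benjamini-Hochberg over the whole table. All 10 libraries entered the fit against the input, and the 9 IP libraries the fit between groups. SE is the log2FC over the root of the F statistic. Levels are CPM with TMM factors. Coordinates and transcript lengths are from GENCODE M21 (GRCm38, the assembly of mm10), and promoters from RefSeq (GRCm38.p6).

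All 26 members that passed the filter are named against the input and, between IP groups, those called or else the 3 with the smallest p. Members with under 100 input counts were marked as low. The members, lists and tests were chosen with earlier results of these data known. Alternatives were DESeq2 1.42.0, RLE and upper quartile factors, no filter, leaving out each library, other sets of libraries and the replicate number as a block, and, chosen after seeing the data, leaving out the replicate 3 libraries and removing each library's trend on transcript length. The code was tested on simulated counts.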

Additional observations from a re-analysis of the deposited data

How the results depend on the processing

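Against the input, the 6 members called higher and Tspan2 were called under all alternatives run. The number called lower, 1, became 2 with Tspan12 by DESeq2, RLE or upper quartile factors, without the replicate 3 libraries and with the length trend removed, and 3, with Tspan12 and Tspan15, for all 9 IP libraries against the input. Leaving out single saline IP libraries gave 1 to 2 lower. Between IP groups, 0 members were called under all alternatives run, so a change is not shown to be absent. The SE for cocaine against saline ranged from 0.17 (Cd63) to 0.96 (Tspan32). The sign of a log2FC near 0 was not stable. Tspan14 was at 0.10 for all 9 IP libraries, 0.037 without the replicate 3 libraries and -0.14 to 0.046 when single libraries were left out. For Tspan5 and Tspan7 it was 0.12 and 0.13 with the length trend removed, and -0.24 to 0.0052 and -0.29 to 0.034 when single libraries were left out. Tspan9 was at -0.16 without the replicate 3 libraries and -0.16 to 0.44 when single libraries were left out, and its yoked against saline value ranged from -0.61 to 0.013. The cause was not tested. Genes called lower over the whole table numbered 785, against 417 without saline replicate 1, 1236 for all 9 IP libraries and 1567 without the replicate 3 libraries. Depth limits Tspan8, Tspan11, Tspan4, Cd37, Tspan1, Tspan10 and Tspan32, with under 100 input counts.

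With the replicate block, 8 members were called higher, with Tspan13 and Tspan32 added, and 2 lower, with Tspan12 added, against the input (the input, which has no number, was set to that of replicate 1), 1577 genes were lower over the whole table, and 0 members were called between IP groups and in the joint test, with 5, 1 and 2 at an unadjusted p under 0.05 for cocaine against saline, yoked against saline and cocaine against yoked. Tspan14 was then at 0.069 and Tspan9 at -0.032. Deviations of same-numbered libraries correlated between -0.036 and 0.32, and those of differently numbered libraries between -0.32 and 0.26. The same-numbered pairs were at -0.036, 0.12 and -0.033 for replicate 1, 0.21, 0.22 and 0.074 for replicate 2, and 0.31, 0.28 and 0.32 for replicate 3. Of 9 libraries, 7 correlated best with their own number, a hint from the data and not from the design.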

Other observations

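Tetraspanin genes with other names lie outside the symbol rule. Upk1b, which encodes a uroplakin of the bladder lining, was at 2.25 ± 1.23 CPM (SD, n = 3) in saline IP against 0.777 CPM and did not pass at a log2FC of 1.53 ± 0.64 (edgeR adjusted p = 0.151). Rom1, known from the outer segments of photoreceptors, was at 5.72 ± 2.26 CPM (SD, n = 3) in saline IP against 3.03 CPM (0.92 ± 0.42, edgeR adjusted p = 0.192). Upk1a had 13 counts in the input and did not pass (edgeR adjusted p = 0.221), and Prph2 had 0.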
